A study of Mus musculus with 28 samples.

Results

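Transcripts of 9 chemokine genes that attract T cells and dendritic cells (Cxcl9, Cxcl10, Cxcl16, Ccl5, Ccl17, Ccl19, Ccl20, Ccl22 and Ccl27a) were followed across 8 groups of mouse skin. The members were chosen by gene name, joined between the count tables of the study's 2 experiments by Ensembl identifier, and all 9 were found among 55573 genes of the whole-body experiment and 57126 genes of the keratinocyte experiment. The study asked how VISTA, the product of Vsir and a protein that restrains T cells and myeloid cells, shapes the skin's response to acute ultraviolet B light (UVB).

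Chemokines are small secreted proteins that steer leukocytes through G protein-coupled receptors. Cxcl9 and Cxcl10 are induced by interferons and act on Cxcr3 of effector T cells and NK cells, and Ccl5 (RANTES) draws T cells and monocytes, Ccr1 and Ccr3 being among its receptors. Cxcl16 is made as a membrane-anchored ligand of Cxcr6 and is cut from the surface by ADAM10 and ADAM17. Ccl17 and Ccl22 are the ligands of Ccr4, and Ccl27a, a product of keratinocytes, is the ligand of Ccr10, so these 3 are known for bringing T cells to skin. Ccl19 acts on Ccr7, which guides migrating dendritic cells and naive T cells, and Ccl20 acts on Ccr6 of Langerhans cell precursors and Th17 cells.

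The whole-body experiment held 4 groups of 3 libraries: Vsir-/- mice (KO) after UVB (KO UV) and without it (KO NoUV), and wild-type mice (WT UV and WT NoUV). The keratinocyte experiment held 4 groups of 4 libraries: K14Cre Vsir fl/fl mice (cKO UV and cKO NoUV), in which the K14 promoter drives Cre in keratinocytes, and Vsir fl/fl mice without Cre (FL UV and FL NoUV). All were 12-week-old females, shaved and depilated 5 days before, and the UV groups received 500 mJ/cm² of UVB. The titles and the design text put the harvest at 3 h after UV and the treatment protocol puts it at 1 day, and the labels give the tissue as skin while the title of the series says epidermis. The experiments carry different batch dates in the labels, so that the date cannot be told apart from the mouse line between them.

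Whole-body libraries held 30470828 to 43837915 counts each, and keratinocyte experiment libraries held 7117198 to 31138604, of which FL NoUV 1 (7117198) and cKO UV 3 (7509742) were the smallest. Vsir had 1.98 to 6.87 counts-per-million (CPM, scaled by TMM) in KO libraries, against 20.2 to 46.1 CPM in WT libraries, and 14.5 to 44.96 CPM in cKO libraries, against 19.4 to 38.5 CPM in FL libraries. Whole skin holds cells in which K14Cre is not active, and counts per gene do not show whether the floxed exons were lost, so Vsir does not check the cKO label. Of the 6 keratinocyte, 12 T cell and 10 dendritic and Langerhans cell markers, each was detected in every group. Summed growing hair follicle markers ranged from 26.3 to 704.4 CPM among keratinocyte experiment libraries and from 4.66 to 41.4 CPM among whole-body libraries.

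Per kb of transcript, Cxcl16 had the highest counted level of the 9 in whole-body libraries, at 11.9 ± 2.85 CPM per kb (SD, n = 12). It exceeded the next gene, Ccl27a at 6.83 ± 2.65, in 12 of 12 libraries. Ccl27a at 6.83, Ccl22 at 5.10 ± 1.31, Cxcl9 at 5.02 ± 5.23 and Ccl20 at 4.67 ± 2.13 CPM per kb were neighbours whose order changed from library to library: Ccl27a exceeded Ccl22 in 7, Ccl22 exceeded Cxcl9 in 8 and Cxcl9 exceeded Ccl20 in 5 of 12. Cxcl10 followed at 2.59 ± 2.44, then Ccl5 at 1.02 ± 0.715 and Ccl17 at 0.817 ± 0.408 CPM per kb. In keratinocyte experiment libraries Ccl27a led, at 32 ± 10.2 CPM per kb (SD, n = 16), above Cxcl16 at 13.9 ± 3.73 in 16 of 16. Ccl22 at 8.51 ± 3.99, Ccl20 at 4.64 ± 3.76, Cxcl9 at 2.96 ± 1.90, Cxcl10 at 2.04 ± 0.994, Ccl17 at 1.86 ± 2.06, Ccl19 at 1.28 ± 1.22 and Ccl5 at 0.525 ± 0.429 CPM per kb completed the order, and no neighbouring pair among them kept its order in all 16 libraries. The experiments were normalized separately, so levels were not compared between them by any test.

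**Figure D1:**
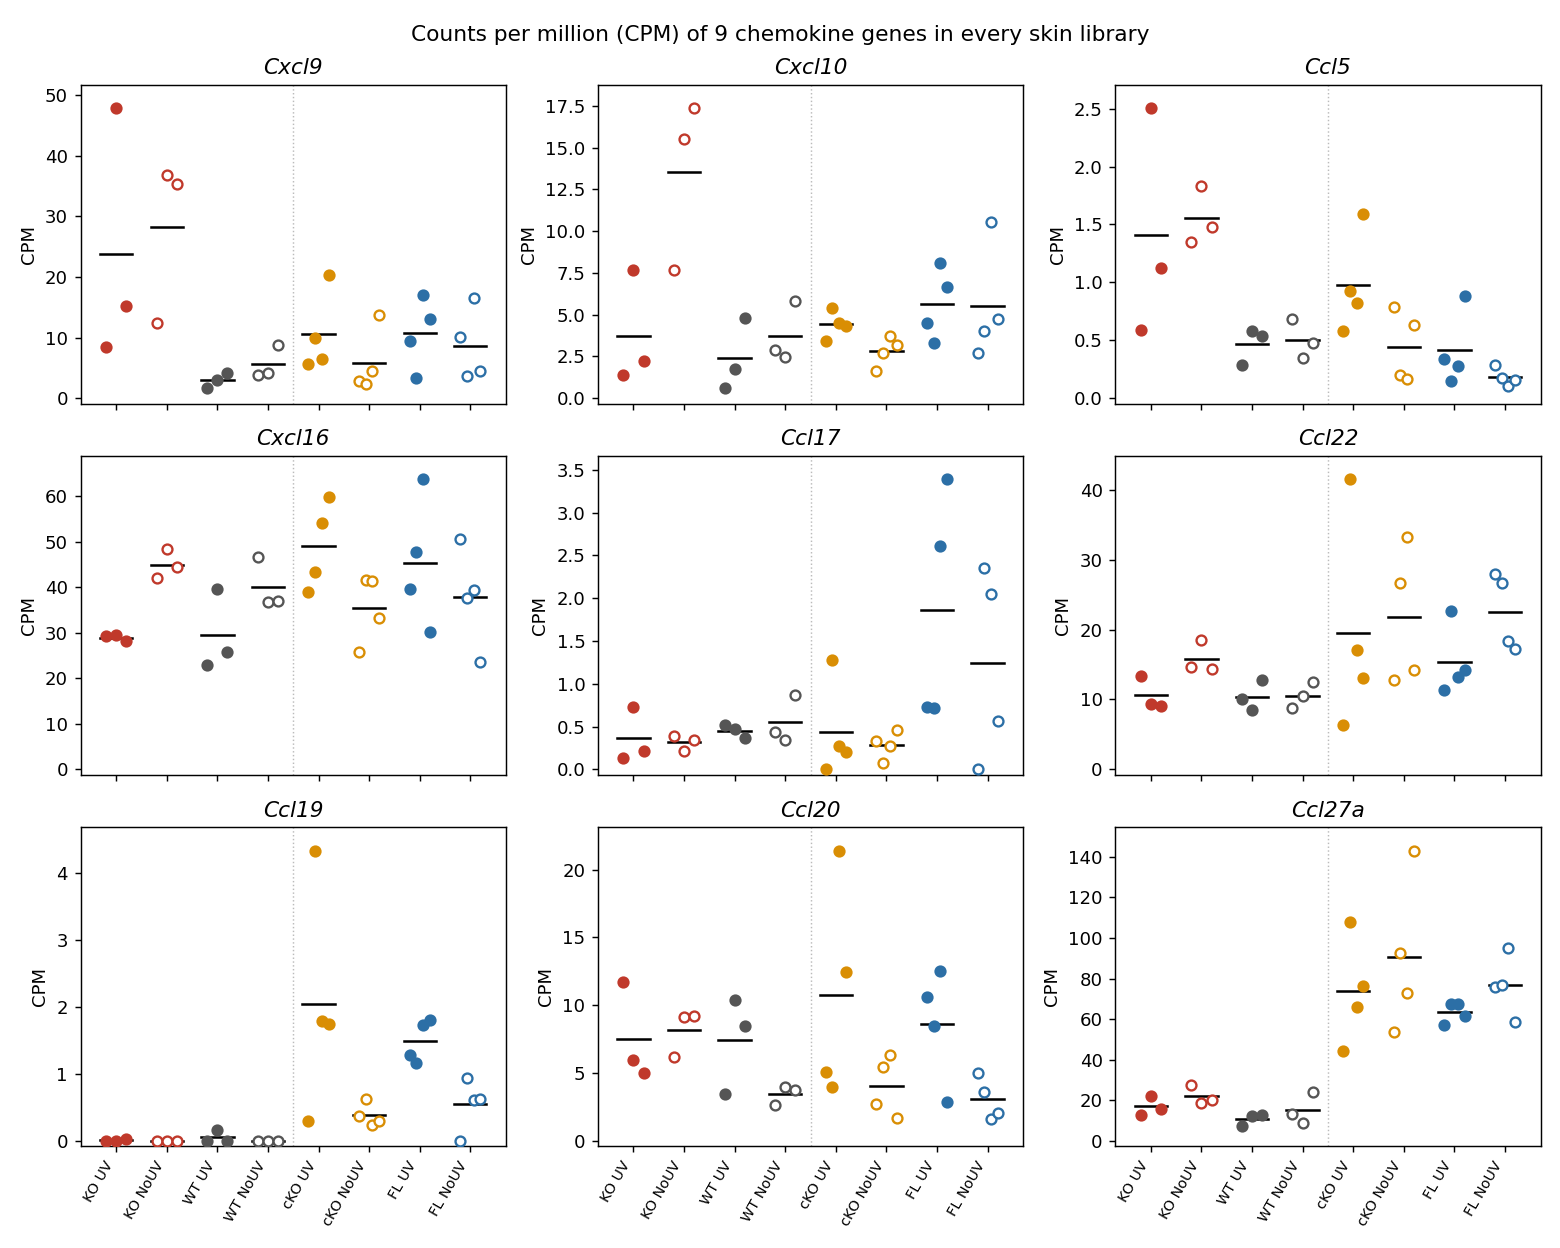
Level (CPM, vertical axes from 0) of the 9 chemokine genes in each of 28 libraries. Points are libraries, filled after UV and open without UV, bars are group means, and the dotted line separates the whole-body experiment (left) from the keratinocyte experiment (right). Cxcl9 and Ccl5 sit high in KO libraries, the mean of Cxcl16 is lower after UV in both KO and WT, and Ccl19 is near 0 throughout the whole-body experiment.

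Some counts could be shared with other genes, since neither the strand setting nor the handling of reads with several alignments is given in the sources used here. Ccl19 and Ccl27a belong to a region of chromosome 4 with near-identical copies. The whole-body table names Ccl19 on chromosome 4, with 7 counts over 12 libraries, and again on an unplaced scaffold, with 5 counts, and its Ccl21a row on chromosome 4 held 0 counts while the scaffold row of Ccl21a held 2276. In the keratinocyte table Ccl19 held 399 counts, the pseudogene Ccl19-ps2 held 162 and Ccl21a held 9797. Ccl19 was not tested in the whole-body experiment because its counts there did not pass the expression filter. Given the copies, its near absence there may not be read as absence from skin. In the whole-body experiment Ccl27a held 6924 counts, its copy Ccl27b held 20, and scaffold rows named Ccl27 held 4 and 1. Whether reads of Ccl27a were lost to such copies was not tested, so its place in the whole-body order holds for counted reads only. Cxcl10 lies within Art3 on the opposite strand, Cxcl16 overlaps Zmynd15, Ccl27a overlaps Il11ra1 and Ccl19 overlaps 4930578G10Rik, each on the opposite strand.

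In GRCm38, Cxcl9 lies on chromosome 5 from 92321347 to 92328079 and Cxcl10 near it from 92346638 to 92348889, both on the minus strand. Cxcl16 lies on chromosome 11 from 70453983 to 70459984 and Ccl5 from 83525778 to 83530518, both on the minus strand. Ccl22 (chromosome 8, 94745590 to 94751699) and Ccl17 (94810453 to 94812036) are neighbours on the plus strand. Ccl27a (chromosome 4, 41769467 to 41774247) and Ccl19 (42754525 to 42756577) are on the minus strand, and Ccl20 (chromosome 1, 83116766 to 83119167) is on the plus strand. Promoter windows from RefSeq (GRCm38.p6, 250 bases before to 50 after the start site) matched 7 of the 9 members, with 9 windows, and none was matched for Cxcl16 and Ccl5. Each window was searched on both strands for the interferon response element (GAAA, any pair of bases, GAAA), the interferon gamma-activated (GAS) element TTCNNNGAA, the kappa B element (GGG, any pair of bases, TTTCC) and the AP-1 element TGANTCA, none of which overlapped another in these windows. The interferon response element was in the windows of Cxcl10 (bases -213 to -204) and Ccl19 (-208 to -199), and in 3.44% of all 32851 windows. The kappa B letters were in that of Ccl20 (-80 to -71) and in 1.63% of all windows, the GAS letters in that of Ccl17 (-99 to -91) and in 8.30%, and the AP-1 letters in those of Cxcl9, Cxcl10 and Ccl27a and in 7.81%. The 250 bases before the start site are shown for Cxcl9 and Cxcl10, neighbours on chromosome 5 whose count ratio was highest in the KO UV libraries. That ratio was chosen after the values were seen and passed no test. Ccl19 and Ccl20 are also shown, as the members with a matched window that were called after UV in the keratinocyte experiment. Capitals mark the interferon response element or the kappa B element in the exact letters given above. Sites with other letters were not searched, so unmarked bases do not show that a site is absent. The sequences run 5′ to 3′ on the gene's strand, and a match is a description of letters only.
Cxcl9, chr5:92328080-92328329, minus strand: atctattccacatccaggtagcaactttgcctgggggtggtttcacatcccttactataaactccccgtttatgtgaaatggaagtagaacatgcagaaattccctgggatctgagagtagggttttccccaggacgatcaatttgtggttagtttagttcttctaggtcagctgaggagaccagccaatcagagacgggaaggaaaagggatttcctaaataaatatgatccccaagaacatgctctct
Cxcl10, chr5:92348890-92349139, minus strand: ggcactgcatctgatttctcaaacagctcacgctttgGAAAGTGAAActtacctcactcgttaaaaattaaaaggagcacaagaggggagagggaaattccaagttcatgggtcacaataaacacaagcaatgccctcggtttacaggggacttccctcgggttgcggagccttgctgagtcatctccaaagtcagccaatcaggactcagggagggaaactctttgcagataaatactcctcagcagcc
Ccl19, chr4:42756366-42756615, minus strand: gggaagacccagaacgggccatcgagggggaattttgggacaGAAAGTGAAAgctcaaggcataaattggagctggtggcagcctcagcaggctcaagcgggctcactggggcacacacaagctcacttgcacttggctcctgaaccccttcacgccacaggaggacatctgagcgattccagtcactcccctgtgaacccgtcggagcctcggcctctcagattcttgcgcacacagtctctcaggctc
Ccl20, chr1:83116516-83116765, plus strand: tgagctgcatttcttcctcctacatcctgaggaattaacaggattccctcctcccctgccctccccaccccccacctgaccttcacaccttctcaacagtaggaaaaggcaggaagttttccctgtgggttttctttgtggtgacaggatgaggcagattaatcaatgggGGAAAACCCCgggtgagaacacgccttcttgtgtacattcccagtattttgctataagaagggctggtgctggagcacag

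To ask whether loss of VISTA in all cells changes the chemokines, KO was compared with WT. Cxcl9, which draws Cxcr3-bearing T cells, was higher in KO skin, by 6.42-fold (95% interval 3.33 to 12.4) averaged over UV and NoUV. Its levels were 8.49, 47.9 and 15.1 CPM in KO UV, against 1.61, 2.98 and 4.16 CPM in WT UV, with no overlap. Without UV they were 12.5, 36.8 and 35.3 CPM in KO NoUV, against 3.86, 4.10 and 8.78 CPM in WT NoUV, again with no overlap. The averaged log2 fold change was 2.68 (SE 0.44, adjusted p = 0.00925 by edgeR's quasi-likelihood test with Benjamini-Hochberg adjustment over all genes). It passed the threshold of 0.05 in 16 of 16 alternatives and was 2.17 on the log2 scale without KO UV 2, the highest library. This average over both treatments was added after the data had been seen.

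Taken apart by treatment, the same difference missed the threshold in edgeR: the log2 fold change of Cxcl9 was 3.02 after UV (SE 0.63, adjusted p = 0.0862) and 2.34 without UV (SE 0.61, adjusted p = 0.144). DESeq2 called it in both, with adjusted p = 0.00328 after UV and 0.0393 without, and with the replicate number as a block edgeR called it after UV (adjusted p = 0.0459). Few genes passed in these comparisons at all, 0.0442% of 20365 genes tested after UV and 0.00982% without, against 7.45% in the averaged comparison (3.93% higher), where 2 of 8 members tested were higher and 0 lower. Of the 8 members tested, 0 were called after UV and 0 without UV by edgeR. An unadjusted p under 0.05 was reached by 2 of 8 after UV and by 5 of 8 without, where it was reached by 15.1% and 15.8% of all genes.

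Ccl5 was the other member called in the averaged comparison, 2.99-fold higher in KO (95% interval 1.80 to 4.96). It had 0.587, 2.50 and 1.12 CPM in KO UV, against 0.290, 0.579 and 0.541 CPM in WT UV. Without UV it had 1.35, 1.84 and 1.48 CPM in KO NoUV, against 0.683, 0.347 and 0.478 CPM in WT NoUV. The groups did not overlap in either treatment, although the counts behind these values were only 9 to 78 per library. The averaged log2 fold change was 1.58 (SE 0.34, edgeR adjusted p = 0.0217), and it lost its call without KO NoUV 1 (adjusted p = 0.0539), KO NoUV 2 (0.0617) or KO UV 2 (0.0628).

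**Figure D2:**
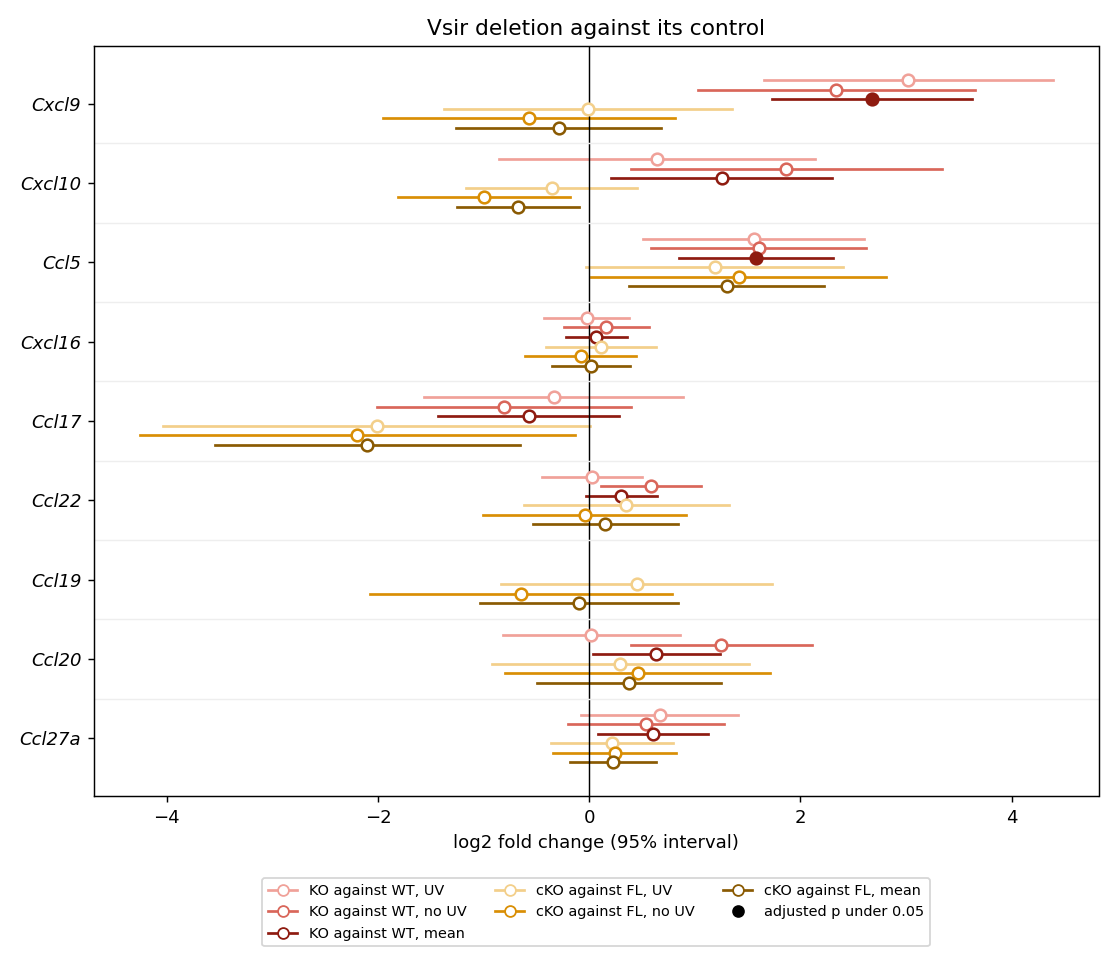
Log2 fold changes (horizontal axis) of each member between Vsir-deleted and control skin, with 95% intervals from the edgeR fit; lines in a row are KO against WT after UV, without UV and averaged, then cKO against FL in the same order. Filled points passed an adjusted p of 0.05: Cxcl9 (2.68) and Ccl5 (1.58) in the averaged KO against WT comparison, and none in cKO against FL.

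Cxcl10, the neighbour of Cxcl9 on chromosome 5, was not called in any of these comparisons. It had 7.69, 15.5 and 17.4 CPM in KO NoUV, against 2.86, 2.46 and 5.79 CPM in WT NoUV, and the groups did not overlap. After UV it had 1.38, 7.65 and 2.20 CPM in KO UV, against 0.581, 1.76 and 4.78 CPM in WT UV, and the groups overlapped. The log2 fold change was 1.87 without UV (SE 0.68, edgeR adjusted p = 0.233) and 0.64 after UV (SE 0.69, adjusted p = 0.651). Art3, in which Cxcl10 lies, had 60.6 ± 4.86 CPM in KO NoUV and 40.8 ± 4.38 CPM in WT NoUV (SD, n = 3 each), and its part in the counts of Cxcl10 was not tested.

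The ratio of Cxcl9 to Cxcl10 counts, a measure chosen after the values were seen and free of library scaling, separated the KO UV libraries from all others. It was 6.15, 6.25 and 6.89 in KO UV, against 1.62, 2.38 and 2.03 in KO NoUV. In WT it was 2.78, 1.69 and 0.869 after UV, against 1.35, 1.67 and 1.52 without. All 3 KO UV libraries stood above every other whole-body library, and also above all 16 keratinocyte experiment libraries, which ranged from 0.884 to 4.70. The mean log2 ratio differed by 1.69 between KO UV and KO NoUV and by 2.01 between KO UV and WT UV. Each had p = 0.1 in a two-sided exact permutation test of 3 against 3, the smallest p that this design allows, and p = 0.4 after adjustment over 8 comparisons. The other 6 comparisons of the ratio had exact permutation p between 0.2 and 0.8.

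**Figure D3:**
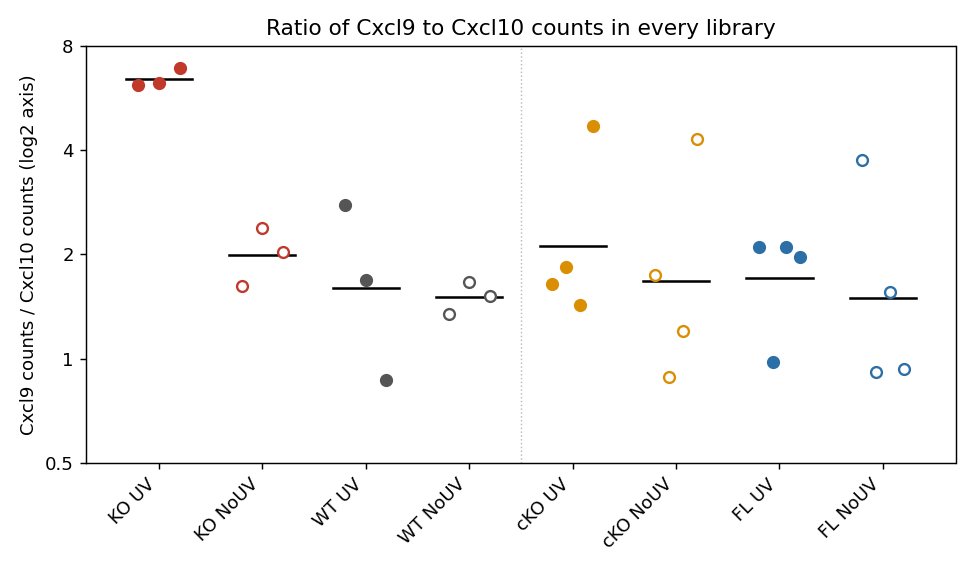
Ratio of Cxcl9 to Cxcl10 counts (vertical log2 axis) in each library, filled after UV and open without UV, with bars at the geometric mean of a group. The 3 KO UV libraries lie between 6.15 and 6.89, above the other 25 libraries.

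Of the remaining members, Ccl20 and Ccl22 were also free of overlap without UV. Ccl20, the Ccr6 ligand, had 6.18, 9.16 and 9.20 CPM in KO NoUV, against 2.62, 3.98 and 3.73 CPM in WT NoUV (log2 fold change 1.25, SE 0.40, edgeR adjusted p = 0.194). Ccl22 had 14.7, 18.5 and 14.4 CPM in KO NoUV, against 8.75, 10.5 and 12.5 CPM in WT NoUV (log2 fold change 0.59, SE 0.22, adjusted p = 0.242). In all, 5 of 9 members (Cxcl9, Cxcl10, Ccl5, Ccl20 and Ccl22) were higher in every KO NoUV library than in every WT NoUV library, where 12.8% of tested genes were. After UV, 3 of 9 (Cxcl9, Ccl5 and Ccl27a) were higher without overlap, where 12% of tested genes were. Ccl27a had 12.9, 22.3 and 15.8 CPM in KO UV, against 7.36, 12.3 and 12.4 CPM in WT UV, and Cxcl16 differed by a log2 fold change of only 0.07 in the average (95% interval -0.22 to 0.36). In the average, Cxcl10 passed without WT UV 3 (log2 fold change 1.745, adjusted p = 0.0489) and Ccl27a without WT NoUV 3 (0.84, adjusted p = 0.0294), and neither passed with all libraries (1.25 and 0.60, adjusted p = 0.110 and 0.121).

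Some genes of interferon gamma signalling and some receptors of these chemokines were also higher in KO in the averaged comparison. Over all genes, 3.93% were higher there and 7.45% were called in either direction. Of 12 interferon gamma signalling genes, 5 were higher and 0 lower, with a median log2 fold change of 0.47 against 0.02 over all genes. Ifng itself rose by 2.38 on the log2 scale (SE 0.55, adjusted p = 0.0263) and had at most 0.54 CPM in any whole-body library. Gbp2, an interferon-induced GTPase, rose by 1.70 (adjusted p = 0.0156) and Ido1, which degrades tryptophan, by 2.06 (adjusted p = 0.0366). Of 12 receptors, 11 were tested, 2 were higher and 0 lower. Among them the Cxcl16 receptor Cxcr6 rose by 1.74 (SE 0.29, adjusted p = 0.0100). Of 9 interleukin 17 genes 6 were tested, 3 were higher, among them Il17ra and Il23a, and 1 lower (Il17rc), and of 12 NF-kB signalling genes 0 were called. Of 12 other lymphocyte and dendritic cell chemokines, 11 were tested and 1 was called: Ccl28, a mucosal chemokine that acts on Ccr10 and Ccr3, which had 1.69, 1.29 and 2.61 CPM in KO UV against 0.19, 0.30 and 0.46 CPM in WT UV and 1.26, 1.32 and 2.87 CPM in KO NoUV against 0.04, 0.25 and 0.39 CPM in WT NoUV (log2 fold change 2.79, SE 0.41, adjusted p = 0.00586).

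Some markers of several cell types were also called in the averaged KO against WT comparison, where 3.93% of all genes were higher and 7.45% were called. Of 12 T cell markers 3 were higher in KO (Trac, Cd8a and Cd8b1), of 10 dendritic and Langerhans cell markers 4 were higher (Cd207, Zbtb46, Xcr1 and Clec9a), and of 4 NK cell markers tested 3 were higher (Gzma, Klrk1 and Eomes), and each of the 3 lists had 0 lower. Means of the T cell marker Trbc2, not called, went the other way, with 7.88 CPM in KO UV against 12.4 CPM in WT UV. Summed T cell markers were 86.4 to 102.2 CPM in KO NoUV, against 52.8 to 71.2 CPM in WT NoUV, and 44.1 to 57.6 CPM in KO UV, against 39.6 to 52.8 CPM in WT UV. Summed NK cell markers were 10.6 to 12.7 CPM in KO NoUV, against 3.70 to 5.71 CPM in WT NoUV. Keratinocyte markers went the other way, with 4 of 6 lower (Krt1, Krt10, Krtdap and Krt14) and sums of 9557 to 15900 CPM in KO UV and 12180 to 15650 CPM in KO NoUV, against 18390 to 29650 CPM in WT UV and 22050 to 33880 CPM in WT NoUV. Of 5 skeletal muscle markers 2 were higher (Myh4 and Tnnt3), with sums of 8184 to 14200 CPM in KO UV, against 7964 to 10570 CPM in WT UV, and 11370 to 15880 CPM in KO NoUV, against 5356 to 9765 CPM in WT NoUV. In bulk skin, fewer cells of a type and less RNA per cell cannot be told apart, and the part of these shifts in the chemokine differences was not tested.

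The same question was asked of deletion in keratinocytes by comparing cKO with FL. No member was called, and none of 19718 genes tested was called by edgeR after UV, without UV or on average (0% in each), while DESeq2 called 5, 6 and 90 genes and no member. An unadjusted p under 0.05 was reached by 0 of 9 members after UV, by 3 of 9 without UV and by 3 of 9 on average, where it was reached by 5.3%, 4.71% and 11% of all genes. For Cxcl9 the averaged log2 difference was -0.29 (95% interval -1.26 to 0.68), beside 2.68 (95% interval 1.73 to 3.63) for KO against WT, and the difference between these genotype effects was not tested. Cxcl9 had 5.60, 9.98, 6.45 and 20.3 CPM in cKO UV, against 9.42, 3.25, 16.98 and 13.0 CPM in FL UV, and 2.82, 2.40, 4.45 and 13.7 CPM in cKO NoUV, against 10.1, 3.68, 16.5 and 4.45 CPM in FL NoUV.

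The members farthest from 0 between cKO and FL were Ccl17 and Ccl5, both at low counts. Ccl17 had 0, 1.28, 0.274 and 0.199 CPM in cKO UV, against 0.725, 0.722, 2.61 and 3.39 CPM in FL UV. Without UV it had 0.332, 0.0786, 0.268 and 0.460 CPM in cKO NoUV, against 0, 2.35, 2.05 and 0.564 CPM in FL NoUV. The averaged log2 difference was -2.10 (SE 0.68, unadjusted p = 0.00716, edgeR adjusted p = 0.366), and the groups overlapped in both treatments. Ccl5 had 0.576, 0.922, 0.823 and 1.59 CPM in cKO UV, against 0.341, 0.144, 0.281 and 0.884 CPM in FL UV (averaged log2 difference 1.302, SE 0.44, adjusted p = 0.369).

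UV against NoUV asked which members respond to acute UVB. Averaged over KO and WT in the whole-body experiment, the only member called was Cxcl16, which was lower after UV. It had 29.3, 29.5 and 28.1 CPM in KO UV, against 42.1, 48.4 and 44.5 CPM in KO NoUV, with no overlap. In WT it had 23.0, 39.7 and 25.8 CPM after UV, against 46.7, 36.9 and 37.0 CPM without, where WT UV 2 lay inside the NoUV range. Averaged over KO and WT, the level after UV was 0.688-fold that without (95% interval 0.563 to 0.839). The log2 fold change was -0.54 (SE 0.13, edgeR adjusted p = 0.00620), and it passed in 16 of 16 alternatives. Of 8 members tested 1 was called, and it was lower. This is a smaller share than over all genes, of which 37.3% were called and 19% were lower.

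Within each genotype the call for Cxcl16 depended on single libraries. The log2 fold change was -0.63 in KO (SE 0.19, edgeR adjusted p = 0.0281) and -0.45 in WT (SE 0.19, adjusted p = 0.119), and the difference of these UV effects was -0.19 (95% interval -0.76 to 0.39, adjusted p = 0.9999). The call in KO was lost when any of the 6 KO libraries was left out, with adjusted p between 0.0581 and 0.0980. It passed in WT without WT UV 2 (log2 fold change -0.74, adjusted p = 0.00868). In KO, 1 of 8 members tested was called, where 22.4% of all genes were and 11.1% were lower, and in WT 0 of 8 were, where 18.7% of all genes were. An unadjusted p under 0.05 in WT was reached by 2 of 8 members and by 32.1% of all genes. No gene was called by edgeR or DESeq2 for the difference between the genotypes' UV effects (0%), and 1 of 8 members (Ccl20) and 1.54% of all genes had an unadjusted p under 0.05 there. Zmynd15, which overlaps Cxcl16 on the other strand, had 3.28 ± 0.85 CPM in KO UV and 2.45 ± 0.24 CPM in KO NoUV (SD, n = 3 each).

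The receptor of Cxcl16 and the enzymes that release it also fell after UV in KO and in WT. This includes WT UV 2, where Adam10 had 44.2 CPM although Cxcl16 lay inside the NoUV range. Cxcr6 had 1.21, 3.41 and 1.93 CPM in KO UV, against 12.3, 11.2 and 10.7 CPM in KO NoUV, and 0.74, 0.72 and 0.48 CPM in WT UV, against 1.74, 3.25 and 5.29 CPM in WT NoUV. No UV library overlapped the NoUV libraries of its genotype, and the log2 fold change was -2.39 in KO (SE 0.40, adjusted p = 0.00143) and -2.39 in WT (SE 0.44, adjusted p = 0.00279). Adam10 fell by 1.13 on the log2 scale in KO (adjusted p = 0.00326) and by 1.17 in WT (adjusted p = 0.00348). Adam17 fell by 0.43 in KO (adjusted p = 0.0190) and by 0.45 in WT (adjusted p = 0.0189). Of the 5 genes of chemokine cleavage, 2 were lower and 1 higher in the averaged UV effect, where 19% of all genes were lower and 37.3% were called. The higher gene was Dpp4, which trims the ends of many chemokines (log2 fold change 0.46, adjusted p = 0.00604).

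**Figure D4:**
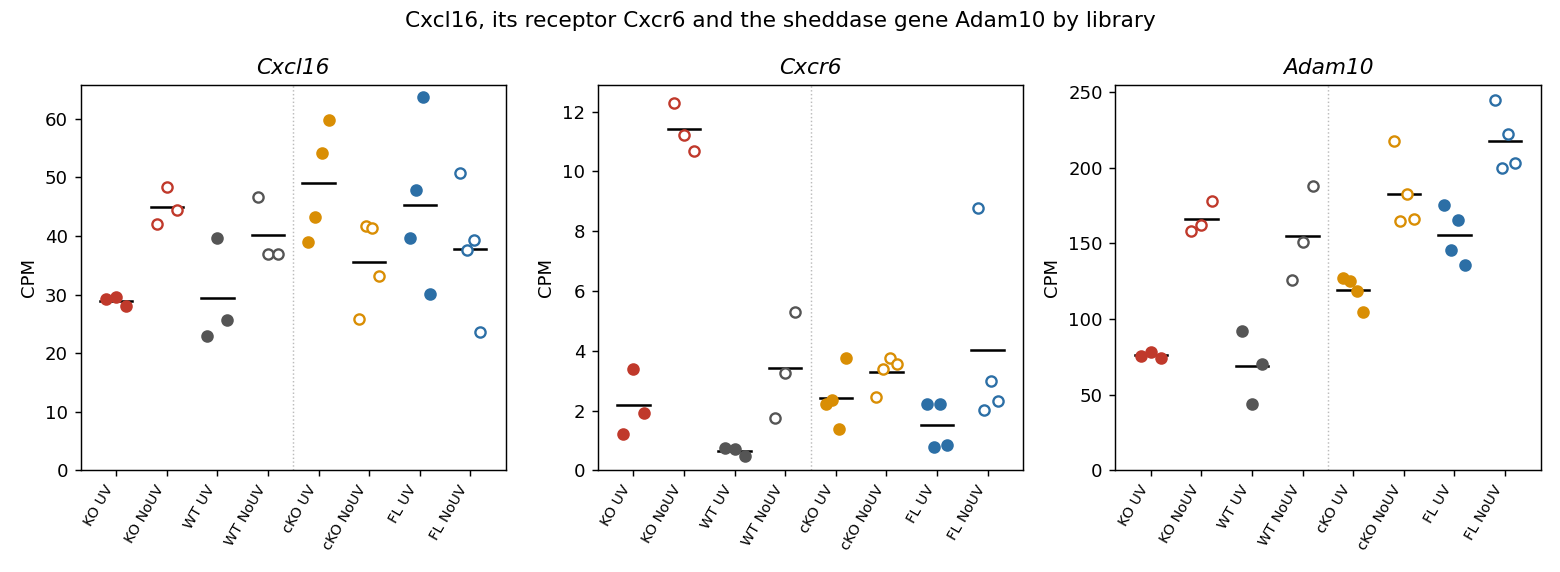
CPM (vertical axes from 0) of Cxcl16, of its receptor Cxcr6 and of the sheddase gene Adam10 in each library, filled after UV and open without UV, with bars at group means. In KO and WT all 3 are lower after UV on average, while in cKO and FL only Adam10 passed the test and the mean of Cxcl16 is higher after UV.

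Other receptors of the members fell as well in the whole-body experiment. Of 11 receptors tested, 7 were lower and 2 higher in the averaged UV effect, where 19% of all genes were lower and 37.3% were called. The median log2 fold change of the receptors was -0.83, against 0.01 over all genes. Ccr7, the receptor of Ccl19, fell by 3.33 on the log2 scale (SE 0.46, adjusted p = 0.000132), to at most 0.26 CPM in any UV library. Cxcr3, the receptor of Cxcl9 and Cxcl10, fell by 1.26 (adjusted p = 0.00151), Ccr6 by 1.43 (adjusted p = 0.00129) and Ccr4 by 0.83 (adjusted p = 0.00604). The scavenger receptors Ackr2 and Ackr4 fell by 0.57 and by 0.60 (adjusted p = 0.0256 and 0.0166). Ccr1, found on monocytes and neutrophils, rose by 1.53 (adjusted p = 0.0202) and the venular scavenger Ackr1 by 0.40 (adjusted p = 0.0491). Ccr3 was not called, and Ccr10, the receptor of Ccl27a, stayed at 0.24 CPM or less in all 28 libraries and was not tested.

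Some markers of T cells and dendritic cells were also lower in the averaged UV effect. Over all genes, 19% were lower there and 37.3% were called in either direction. Of 12 T cell markers 7 were lower and 0 higher, led by Trac (log2 fold change -2.24), and of 10 dendritic and Langerhans cell markers 5 were lower and 0 higher, led by Xcr1 (-2.10). Not all means fell. Mean Cd4 was 7.93 CPM in KO UV, against 7.11 CPM in KO NoUV, and 6.22 CPM in WT UV, against 6.01 CPM in WT NoUV. Mean Cd86 was 15.9 CPM in KO UV, against 13.2 CPM in KO NoUV, and 11.5 CPM in WT UV, against 8.63 CPM in WT NoUV. Ccr7 is on both the receptor list and the dendritic cell list. Of 12 interferon gamma signalling genes 5 were lower and 0 higher, among them Irf8 (-1.03), Jak2 (-0.78) and Ciita (-0.85). Of 11 other chemokines tested, 3 were higher, led by Cxcl13 (1.52), and 3 lower, led by Cx3cl1 (-0.68). Macrophage markers were higher in 4 of 8, neutrophil markers in 3 of 6 tested and adipocyte markers in 2 of 4, while growing hair follicle markers were lower in 3 of 6 and blood endothelium markers in 2 of 4. Marker sums of T cells (44.1 to 57.6 CPM in KO UV, against 86.4 to 102.2 CPM in KO NoUV), NK cells and 4 further cell types did not overlap between the KO groups. Of single genes tested, 25.4% were lower in KO UV without overlap. That share does not cover the sums of lymphatic endothelium and fibroblast, which were higher. Lymphatic endothelium had 256 to 288.9 CPM in KO UV, against 94.7 to 119.4 CPM in KO NoUV, and fibroblast 8617 to 10820 CPM in KO UV, against 5840 to 6844 CPM in KO NoUV. Growing hair follicle had 4.66 to 10.2 CPM in KO UV, against 21.3 to 24.2 CPM in KO NoUV, and blood endothelium 135.6 to 196.2 CPM in KO UV, against 224 to 231 CPM in KO NoUV. Summed dendritic and Langerhans cell markers were 64.6 to 88.3 CPM in KO UV, against 87.9 to 108.9 CPM in KO NoUV, and 55.7 to 69.2 CPM in WT UV, against 57.6 to 73.3 CPM in WT NoUV. The part of these shifts in the fall of Cxcl16 and of the receptors was not tested.

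Cxcl10 and Ccl22 were, with Cxcl16, lower in every KO UV library than in every KO NoUV library, a pattern that 25.4% of tested genes had. For Cxcl10 the log2 fold change in KO was -1.86 (SE 0.69, edgeR adjusted p = 0.0690), and with the replicate number as a block it was -1.91 and passed (adjusted p = 0.0295). It also passed without WT UV 1, WT UV 3 or KO UV 2, so in 4 of 17 alternatives. Averaged over KO and WT it was -1.25 (adjusted p = 0.0592), with -1.41 (adjusted p = 0.0153) under the block, -1.79 (adjusted p = 0.00995) without KO UV 2 and -1.77 (adjusted p = 0.0131) without WT UV 3. Without KO UV 2, Cxcl9 also passed in that average (-1.11, adjusted p = 0.0289, against -0.59 and 0.297 with it), and Ccl20 passed without WT UV 1 (0.65, adjusted p = 0.0480). Ccl22 had 13.4, 9.29 and 9.11 CPM in KO UV, against 14.7, 18.5 and 14.4 CPM in KO NoUV (log2 fold change -0.58, SE 0.22, adjusted p = 0.0755), and passed without KO UV 1 (-0.81), without WT NoUV 1 and with only the KO groups in the fit. Ccl20 had 3.42, 10.4 and 8.42 CPM in WT UV, against 2.62, 3.98 and 3.73 CPM in WT NoUV (log2 fold change 1.11, SE 0.40, adjusted p = 0.0684; 0.0301 by DESeq2 and 0.0156 without WT UV 1), while in KO it had 11.7, 5.91 and 4.98 CPM after UV, against 6.18, 9.16 and 9.20 CPM without, and the log2 fold change was -0.12 (SE 0.39, adjusted p = 0.860). The difference of these UV effects was -1.23 (95% interval -2.43 to -0.04, adjusted p = 0.9999).

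**Figure D5:**
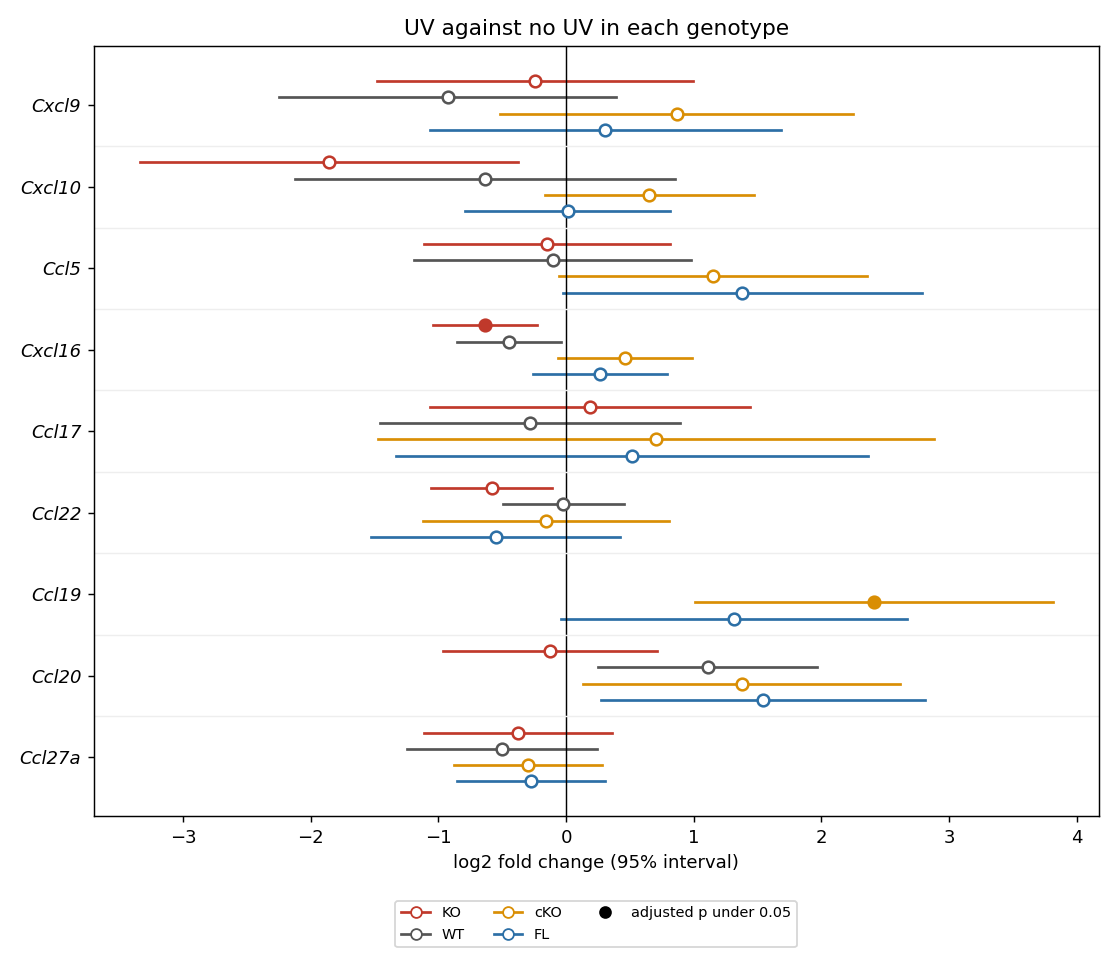
Log2 fold change of each member after UV against NoUV (horizontal axis) with 95% intervals, in KO, WT, cKO and FL from top to bottom within each row. Filled points passed an adjusted p of 0.05: Cxcl16 in KO (-0.63) and Ccl19 in cKO (2.41), and Ccl19 has no value in KO and WT.

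In the keratinocyte experiment the members that changed after UV rose. Averaged over cKO and FL, 3 of 9 were higher and 0 lower, where 12% of all genes were higher and 24.3% were called in either direction. Ccl19, which draws Ccr7-bearing cells, was 3.64-fold higher (95% interval 1.85 to 7.15). It had 0.288, 4.33, 1.78 and 1.74 CPM in cKO UV, against 0.373, 0.629, 0.234 and 0.293 CPM in cKO NoUV, and 1.28, 1.15, 1.73 and 1.80 CPM in FL UV, against 0, 0.930, 0.614 and 0.627 CPM in FL NoUV. In FL the groups did not overlap, as in 6.67% of tested genes, and in cKO only cKO UV 1 lay within the NoUV range. The averaged log2 fold change was 1.86 (SE 0.46, edgeR adjusted p = 0.00790), and it passed in 21 of 21 alternatives.

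In cKO alone the log2 fold change of Ccl19 was 2.41 (SE 0.66, edgeR adjusted p = 0.0306), and in FL alone it was 1.32 (SE 0.64, adjusted p = 0.233). The difference of these effects was 1.09 (95% interval -0.83 to 3.02, adjusted p = 0.9997). In cKO, 1 of 9 members was called, where 9.72% of all genes were and 4.57% were higher, and in FL 0 of 9 were by edgeR or DESeq2, where 7.62% were by edgeR. An unadjusted p under 0.05 in FL was reached by 1 of 9 members and by 22.9% of all genes. For the difference between cKO and FL, 0 of 9 members and 0% of all genes were called by edgeR, 0 by DESeq2, and 0 of 9 members and 1.26% of all genes had an unadjusted p under 0.05. The call in cKO was lost with only the cKO groups in the fit (adjusted p = 0.0671) and without cKO UV 2 (log2 fold change 1.66, adjusted p = 0.149), cKO UV 3 (0.0520), cKO UV 4 (0.0513), cKO NoUV 1 (0.0543), cKO NoUV 3 (0.0917) or cKO NoUV 4 (0.0784). The counts of Ccl19 were 7 to 108 per library after UV and 0 to 21 without. The overlapping 4930578G10Rik had 0.688 ± 0.0518 CPM in cKO UV and 0.474 ± 0.288 CPM in cKO NoUV, and 0.855 ± 0.630 CPM in FL UV and 0.198 ± 0.0832 CPM in FL NoUV (SD, n = 4 each), and its part in the counts of Ccl19 was not tested.

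Ccl20 was 2.75-fold higher after UV in the average (95% interval 1.48 to 5.08). It had 5.06, 3.93, 21.4 and 12.5 CPM in cKO UV, against 2.74, 5.46, 6.32 and 1.67 CPM in cKO NoUV, and 10.6, 8.44, 12.5 and 2.83 CPM in FL UV, against 4.96, 3.59, 1.60 and 2.07 CPM in FL NoUV. The ranges overlapped in both genotypes, with cKO UV 3 the highest library. The log2 fold change was 1.46 (SE 0.42, edgeR adjusted p = 0.0192), and the call was lost only without the filter on low counts (adjusted p = 0.0817). Ccl5 rose by 1.27 on the log2 scale (SE 0.44, adjusted p = 0.0446) at counts of 2 to 32 per library, a call kept in 9 of 21 alternatives. It was lost without the filter, without the 2 smallest libraries, and without FL NoUV 2, 3 or 4, cKO NoUV 2 or 3, FL UV 1 or 4, or cKO UV 2, 3 or 4. Its log2 fold change was lowest without FL UV 4 (0.92, adjusted p = 0.136).

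Some genes of NF-kB, interleukin 17 and type 2 signalling were also called after UV in the averaged effect. Over all genes, 12% were higher there and 24.3% were called in either direction. The part of these genes in the rise of Ccl19, Ccl20 and Ccl5 was not tested. Of 12 NF-kB signalling genes 6 were higher and 2 lower in the keratinocyte experiment, led by Icam1 (log2 fold change 1.34, adjusted p = 2.41e-05) and Tnf (1.35, adjusted p = 0.000359), while Nfkb1 fell by 0.50 and Il1a by 1.56. Of 9 interleukin 17 genes 5 were tested and 1 was higher, the receptor gene Il17ra (1.10, adjusted p = 4.01e-05). Of 9 type 2 genes 7 were tested and 4 were higher, among them Tslp, an epithelial cytokine that acts on dendritic cells (1.297, adjusted p = 0.0149). Of 11 receptors tested, 3 were higher and 0 lower, among them Ccr1 by 1.71 (adjusted p = 0.0121) and Ackr1 by 0.68 (adjusted p = 0.0271). Ccl3 and Ccl4, chemokines of activated leukocytes, rose by 1.78 (adjusted p = 0.0406) and 1.75 (adjusted p = 0.00952).

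Among cell type markers in the keratinocyte experiment, 0 of 12 T cell and 0 of 10 dendritic and Langerhans cell markers were called after UV, while 3 of 8 macrophage, 4 of 5 skeletal muscle, 2 of 4 adipocyte and 1 of 4 lymphatic endothelium markers were higher. In the averaged UV effect 12% of all genes were higher and 24.3% were called in either direction. In FL, 3 marker sums did not overlap: lymphatic endothelium had 86.5 to 140.5 CPM in FL UV, against 48.4 to 74.1 CPM in FL NoUV, fibroblast had 5502 to 7606 CPM in FL UV, against 2970 to 4994 CPM in FL NoUV, and adipocyte had 388.2 to 596.2 CPM in FL UV, against 204.1 to 339.3 CPM in FL NoUV. Of single genes tested, 6.67% were higher in FL UV without overlap. In cKO the same 3 sums overlapped between UV and NoUV. Summed skeletal muscle markers were 4863 to 16330 CPM in cKO UV and 2029 to 6906 CPM in FL UV, against 1704 to 5528 CPM in cKO NoUV and 1571 to 2892 CPM in FL NoUV. The part of these shifts in the rise of Ccl19, Ccl20 and Ccl5 was not tested.

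To ask whether UV acted differently in the 2 experiments, the averaged UV effects were compared in a joint model of all 8 groups. Of the members, 1 was called, Cxcl16, where 9.09% of 21851 genes were and 3.98% were lower. In the keratinocyte experiment it had 39.0, 43.3, 54.2 and 59.9 CPM in cKO UV, against 25.9, 41.7, 41.4 and 33.2 CPM in cKO NoUV, and 39.7, 47.8, 63.7 and 30.2 CPM in FL UV, against 50.7, 37.6, 39.4 and 23.6 CPM in FL NoUV (averaged log2 fold change 0.37, SE 0.17, edgeR adjusted p = 0.140). The UV effect in the whole-body experiment minus that in the keratinocyte experiment was -0.90 on the log2 scale (SE 0.24, adjusted p = 0.0153), and it passed in 33 of 33 alternatives. Zmynd15 had 6.63 ± 1.44 CPM in cKO UV and 2.38 ± 0.63 CPM in cKO NoUV, and 5.49 ± 0.86 CPM in FL UV and 2.32 ± 0.68 CPM in FL NoUV (SD, n = 4 each). Its part in the counts of Cxcl16 was not tested.

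The Cxcl16 receptor and sheddase genes differed in the same direction. The difference of UV effects was -1.53 for Cxcr6 (SE 0.47, adjusted p = 0.0397) and -0.60 for Adam10 (SE 0.17, adjusted p = 0.0291), and Ccr7 was the other of 11 receptors tested to be called (-2.51, SE 0.63, adjusted p = 0.0123). Adam10 fell after UV in the keratinocyte experiment too, by 0.55 on the log2 scale (SE 0.09, adjusted p = 0.000313). Of the T cell markers 2 of 12, Trac and Il7r, and of the dendritic cell markers 2 of 10, Ccr7 and Xcr1, had a more negative UV effect in the whole-body experiment. Over all genes tested, 3.98% were called with a more negative effect there and 9.09% were called in either direction. Cxcl10 had a difference of -1.58 (SE 0.57, adjusted p = 0.0870; 0.0485 by DESeq2, 0.00983 with the replicate block, and also under 0.05 without WT UV 3, KO UV 2 or FL NoUV 3) and Ccl5 of -1.40 (SE 0.57, adjusted p = 0.130). Ccl19 passed the filter in the joint model and was not called (0.95, SE 0.83, edgeR adjusted p = 0.554). Its value is not read further because of its counts in the whole-body table. The experiments differ in mouse line, batch date and annotation, which cannot be told apart here.

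Ccl22 and Ccl27a, like Cxcl10 and Ccl17, were called in none of the main tests. Ccl27a had 44.4, 107.8, 65.8 and 76.5 CPM in cKO UV, against 53.8, 92.4, 72.8 and 143.1 CPM in cKO NoUV, and 57.3, 67.5, 67.5 and 61.6 CPM in FL UV, against 75.6, 77.0, 95.1 and 58.8 CPM in FL NoUV. Its averaged UV effect was -0.44 on the log2 scale in the whole-body experiment (95% interval -0.96 to 0.08) and -0.28 in the keratinocyte experiment (95% interval -0.69 to 0.12). For Ccl22 these were -0.30 (95% interval -0.64 to 0.03) and -0.35 (95% interval -1.04 to 0.33). Ccl22 ranged from 6.38 to 41.5 CPM among the 4 cKO UV libraries, a wider range than in any other group. Ccl17, its neighbour on chromosome 8, never exceeded 0.866 CPM in a whole-body library.

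The genes whose levels followed each member most closely were found by the smaller of the Spearman correlations over 12 whole-body and 16 keratinocyte experiment libraries among 14678 genes, as a description with no test, since libraries share depth, cell makeup and treatment. For Cxcl9 these were Iigp1 (0.951 and 0.903), Gbp5 (0.951 and 0.900) and Gbp2 (0.993 and 0.879), all interferon-induced GTPase genes. Gbp2 had 43.4, 159.9 and 49.8 CPM in KO UV, against 17.6, 21.2 and 34.9 CPM in WT UV, and 68.1, 133.7 and 105.5 CPM in KO NoUV, against 26.3, 26.7 and 47.6 CPM in WT NoUV, with the same high library, KO UV 2, as Cxcl9. For Cxcl10 the closest were Csrp2, Cd200r3 and Mgat1 (smaller values 0.706 to 0.753), for Cxcl16 Pfkfb3, Dnase1l3 and Stx11 (0.703 to 0.755), and for Ccl5 Irf9, C2 and Styx (0.650 to 0.659). For Ccl27a they were Parp8, Tlr3 and Stap1 (0.800 to 0.826), for Ccl22 Slain2, Smco3 and Rmnd5a (0.726 to 0.783), for Ccl20 Rgs4, Dusp8 and Cxcl13 (0.615 to 0.650) and for Ccl17 Adgra2, Stk11ip and Mrc2 (0.566 to 0.664). Between members, Cxcl9 and Cxcl10 had 0.741 and 0.553, Cxcl9 and Ccl5 0.832 and 0.344, and Cxcl16 and Ccl20 0.133 and 0.797, in the whole-body and the keratinocyte experiment in that order.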

How the data were processed

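RNA was measured in 28 libraries of total RNA depleted of ribosomal RNA from mouse skin, read in pairs. Per the submitters' processing notes, cutadapt 4.6 trimmed the reads, HISAT2 2.1.0 aligned them to GRCm38, and featureCounts of Subread counted them. The deposited values are raw read counts per gene in 1 table per experiment, with no normalization by the authors. Positions matched the GENCODE M21 annotation of GRCm38 for 99.7% of shared genes in the whole-body table and for 2.76% in the keratinocyte table, so only whole-body coordinates are printed.

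The test was edgeR's quasi-likelihood test, version 4.0.16 under R 4.3.3 (robust, TMM scaling, also used for CPM, default expression filter, 1 coefficient per group, two-sided, Benjamini-Hochberg over all genes, threshold 0.05). Each experiment was fitted alone, and a joint model compared UV effects. A gene is called, or rose or fell, where it passed. DESeq2 1.42.0, other scaling, no filter, a replicate block, fits of only the groups compared, and left-out libraries were the alternatives, and the fits were tested on simulated data. At the depths given, 3 counts are 0.0684 to 0.422 CPM, a floor for counting error only. The design text calls the replicates biological, and the lowest chi-square per degree of freedom over 36 replicate pairs was 26.4, so none was a repeat of another.

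The labels do not say that replicate numbers pair samples. By the correlation of deviations from group means, every same-numbered pair of KO UV and KO NoUV exceeded 0.1 (0.200 to 0.276). So did every such pair of cKO UV and cKO NoUV (0.236 to 0.587). Between WT UV and WT NoUV and between FL UV and FL NoUV some pairs fell below 0. Differently numbered libraries reached 0.627 (WT NoUV 1 with WT UV 2). Pairing was not settled by these values, so the main tests used no replicate block, and the block was an alternative only. The block was fitted over all 4 groups of an experiment.

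The members and lists were chosen with earlier results of these data known. The genes named are all 9 members, Vsir, every receptor, up to 4 called genes with the smallest p from each list, and the 3 genes most like each member. Some genes that this rule names are not reported here. The averaged genotype comparisons and the Cxcl9 to Cxcl10 ratio were added after the data were seen.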

Additional observations from a re-analysis of the deposited data

Results flagged for a closer look

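The UV effect of Cxcl16 differed between the experiments by a test of the difference itself: whole-body minus keratinocyte, it was -0.90 on the log2 scale (edgeR adjusted p = 0.0153 in the joint model of 8 groups). Cxcl16 fell after UV averaged over KO and WT (log2 fold change -0.54) and was not called averaged over cKO and FL (0.37, adjusted p = 0.140). No library stood apart by the gap test in the 36 combinations of member and keratinocyte experiment group, each of 4 libraries. The groups of 3 libraries were not tested for such gaps.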

How the results depend on the processing

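No member's log2 fold change that was called turned its direction under any alternative. Of 2580 recomputed member values, 2525 stayed on the same side of the threshold, 29 lost their call and 26 gained one. With a replicate block, 2 members were called for UV in KO, 2 for the averaged UV effect in the whole-body experiment, 1 for KO against WT after UV and 2 for the difference of UV effects between experiments. The added calls were Cxcl10, and Cxcl9 for KO against WT after UV, and the block changed no other call of a member. Deviations correlated above 0.1 in 11 of 18 same-numbered and 7 of 36 other pairs of whole-body libraries, and in 13 of 24 same-numbered and 25 of 72 other pairs of keratinocyte experiment libraries. With DESeq2, 1 member was called for UV in WT, 2 for KO against WT without UV, 1 for KO against WT after UV and 2 for the difference between experiments. With only the groups compared, 2 were called for UV in KO and 0 for UV in cKO. With no filter on low counts, 1 was called for the averaged UV effect in the keratinocyte experiment. Leaving out single libraries gave 0 to 2 members for UV in KO, 0 to 1 for UV in WT, 1 to 3 for the averaged UV effect in the whole-body experiment, 0 to 1 for UV in cKO, 2 to 3 for the averaged UV effect in the keratinocyte experiment, 1 to 2 for the difference between experiments and 1 to 3 for KO against WT averaged. The cause of these shifts was not tested.

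Over all genes, 4552 were called for UV in KO, 7493 with only the groups compared and 2832 to 5683 without single libraries, and 3817 for UV in WT, 1288 with only the groups compared. KO against WT gave 2 genes without UV, 573 by DESeq2, 185 with no filter, 22 with the block, 4 with only the groups compared and 2 to 27 without single libraries. After UV it gave 9, 429 by DESeq2, 162 with no filter, 31 with the block and 2 to 155 without single libraries. On average it gave 1517, 3363 by DESeq2 and 235 to 3076 without single libraries. UV in FL gave 1502, 2304 by DESeq2 and 992 with no filter, 953 with only the groups compared and 884 to 1696 without single libraries, and UV in cKO gave 1917, 1276 with no filter and 1178 to 2424 without single libraries. Depth limits Ccl5, Ccl17 and Ccl19, whose counts fell to 5 or fewer in some libraries, and a missed threshold for them does not show that levels were alike.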
